A study of Mus musculus with 8 samples.

Results

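The FOS, JUN and EGR immediate early factors are a group of transcription factors whose transcripts were followed here across 3 mouse bones. They comprised 4 FOS genes (Fos, Fosb, Fosl1, Fosl2), 3 JUN genes (Jun, Junb, Jund) and 3 EGR genes (Egr1, Egr2, Egr3). They were chosen by symbol, 10 of 43346 genes in the count table, and all 10 passed the filter on low counts that left 15511 genes for testing. RNA was sequenced from osteocyte-enriched fractions of bone of C57BL/6 mice at 12 weeks of age, with no treatment in the labels; osteocytes are the cells that lie inside mineralized matrix. There were 3 femur, 3 frontal and 2 parietal libraries, and the frontal and parietal libraries are together called calvaria, the skull vault. The study set out to compare osteocyte transcriptomes of flat skull bones and a long bone. The labels give no sex, and nothing in them ties a library to an animal or to a pool. The p-values below therefore describe only how far these libraries scatter, part of which may be technical.

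FOS proteins bind DNA as dimers with JUN proteins, and JUN proteins can also pair with each other. These dimers make up the factor AP-1, which acts on genes for matrix proteases, cytokines and cell cycle proteins. EGR proteins are zinc finger factors that bind GC-rich sites and are held back by the NAB corepressors. Transcription of many of these genes starts within minutes of a stimulus, through MAP kinases and serum response factor with its ELK partners, or through CREB. In bone they are known as early responders to mechanical load and to parathyroid hormone, and they also respond to stress while cells are isolated from tissue.

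The promoters are shown because entry points of these signals are known in promoters, though only the stretch next to each start was searched. RefSeq promoter entries on GRCm38.p6 matched 7 of the 10 genes. The 250 bases before the RefSeq start were searched on both strands for 6 motifs: TGANTCA (AP-1), TGACATCA (an AP-1-like site), TGACG (core of the cyclic AMP response element), the CArG box of serum response factor, TATAAA, and GCGTGGGCG (EGR). The windows are Fos at chr12:85473640-85473889 on the plus strand, Fosb at chr7:19310046-19310295 on the minus strand, Jun at chr4:95052223-95052472 on the minus strand, Junb at chr8:84978749-84978998 on the minus strand, and Egr2 at chr10:67537619-67537868 on the plus strand, 1 of 5 Egr2 starts. All are written 5′ to 3′ along the gene, with motif matches in capitals.
Fos: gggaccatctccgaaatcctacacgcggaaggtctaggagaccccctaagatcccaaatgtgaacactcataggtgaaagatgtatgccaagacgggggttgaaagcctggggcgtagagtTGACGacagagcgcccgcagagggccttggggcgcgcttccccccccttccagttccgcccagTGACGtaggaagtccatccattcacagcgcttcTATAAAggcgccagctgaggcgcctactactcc
Fosb: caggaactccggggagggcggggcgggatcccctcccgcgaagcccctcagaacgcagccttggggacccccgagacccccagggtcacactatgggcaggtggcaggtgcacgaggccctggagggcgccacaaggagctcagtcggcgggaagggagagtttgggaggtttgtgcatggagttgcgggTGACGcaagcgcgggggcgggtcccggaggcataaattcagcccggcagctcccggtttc
Jun: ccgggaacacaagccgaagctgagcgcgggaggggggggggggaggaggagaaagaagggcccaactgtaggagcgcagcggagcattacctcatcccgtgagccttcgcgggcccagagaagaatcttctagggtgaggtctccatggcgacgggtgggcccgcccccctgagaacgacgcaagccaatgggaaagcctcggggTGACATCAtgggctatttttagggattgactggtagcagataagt
Junb: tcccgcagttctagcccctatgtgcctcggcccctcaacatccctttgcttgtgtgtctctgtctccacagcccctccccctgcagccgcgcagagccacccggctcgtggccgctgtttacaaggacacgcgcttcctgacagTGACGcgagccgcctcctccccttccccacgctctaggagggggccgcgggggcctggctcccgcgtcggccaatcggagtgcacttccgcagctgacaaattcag
Egr2: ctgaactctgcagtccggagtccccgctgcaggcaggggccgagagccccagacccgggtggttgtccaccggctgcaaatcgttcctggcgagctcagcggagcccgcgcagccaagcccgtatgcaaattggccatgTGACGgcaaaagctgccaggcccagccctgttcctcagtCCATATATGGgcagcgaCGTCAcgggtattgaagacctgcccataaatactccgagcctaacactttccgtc
Fos held TGACG at -129 to -125 and at -66 to -62 from its start, and TATAAA at -33 to -28. Fosb held TGACG at -60 to -56, and Junb held it at -106 to -102. Jun held TGACATCA at -45 to -38. Egr2 held a CArG box at -72 to -63, flanked by TGACG matches at -111 to -107 and, on the opposite strand, at -55 to -51. No match to the 6 motifs was found in the Fosl2 and Jund windows. The Jund window ends 1210 bases before the gene in GENCODE M21, and the Fosl2 window lies inside that gene, so neither is the stretch just before the annotated gene start. The Egr2 window shown also lies inside the annotated gene, before an internal start. The Egr2 window at the annotated gene start, chr10:67535249-67535498, held no match to the 6 motifs. The one at chr10:67537316-67537565 held another CArG box at -72 to -63 and no TGACG. Fosl1, Egr1 and Egr3 had no entry to search. Among 27025 promoters, 1 per symbol, 17.9% held TGACG, 3.02% TGACATCA, 13.0% TATAAA and 1.40% a CArG box. With 5 windows, Egr2 had more chances of a match than a gene in that count. TGANTCA stood in 6.87% of those promoters and GCGTGGGCG in 0.540%, and neither stood in a member's window. A match describes letters in these windows and is no evidence of binding. The lack of a match, such as of a CArG box in the Fos window, says nothing of sites farther upstream, which were not searched.

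Total gene counts ran from 6259229 to 13461622 per library, and the members' levels below are CPM, counts relative to library size on edgeR's TMM scale, TMM being a trimmed-mean scaling between libraries. The osteocyte label held unevenly. The summed share of 16 osteocyte markers was 2.46 to 4.78% of counts in femur and 0.166 to 0.255% in calvaria. Dmp1, a matrix protein gene, alone made up 77.4 to 87.1% of that sum in femur and 22 to 28% in calvaria. Of the 16, 11 were lower in calvaria, 2 higher (Capg and Dstn) and 3 did not pass. Among them Sost, the gene of sclerostin, stood at 230 to 437 CPM in femur and 20.5 to 30.5 CPM in calvaria. Markers of erythroid cells and granulocytes ran the other way. Those of megakaryocytes overlapped, at 0.0561 to 0.139% of counts in femur and 0.119 to 0.254% in calvaria. Of 10 tested markers of marrow stroma and adipocytes, 2 were lower in calvaria, 3 higher and 5 did not pass. Erythroid markers held 1.26 to 3.04% of counts in femur and 7.40 to 11.7% in calvaria, and granulocyte markers 1.81 to 4.73% and 6.90 to 9.23%. In these bulk samples, fewer cells of a type and less RNA per cell cannot be told apart.

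The 10 genes were lower in calvaria than in femur in every library on the TMM scale. How many of all genes separate in this way was not counted. Fos, Fosl2, Jun and Jund had higher calvarial values when libraries were scaled to the osteocyte markers. Fosl2 also had a higher calvarial value once GC and length trends were removed. The 10 together took 0.407, 0.390 and 0.449% of counts in femur libraries 1, 2 and 4, and 0.0976 to 0.148% in the 5 calvarial libraries. On the TMM scale edgeR's quasi-likelihood test called 10 of 10 lower, where 31.4% of the 15511 genes tested were called lower. Their median log2 fold change was -2.21, against 0.01 over all genes tested. The differences ran from -0.71 for Fosl2 to -3.97 for Egr3.

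**Figure D1:**
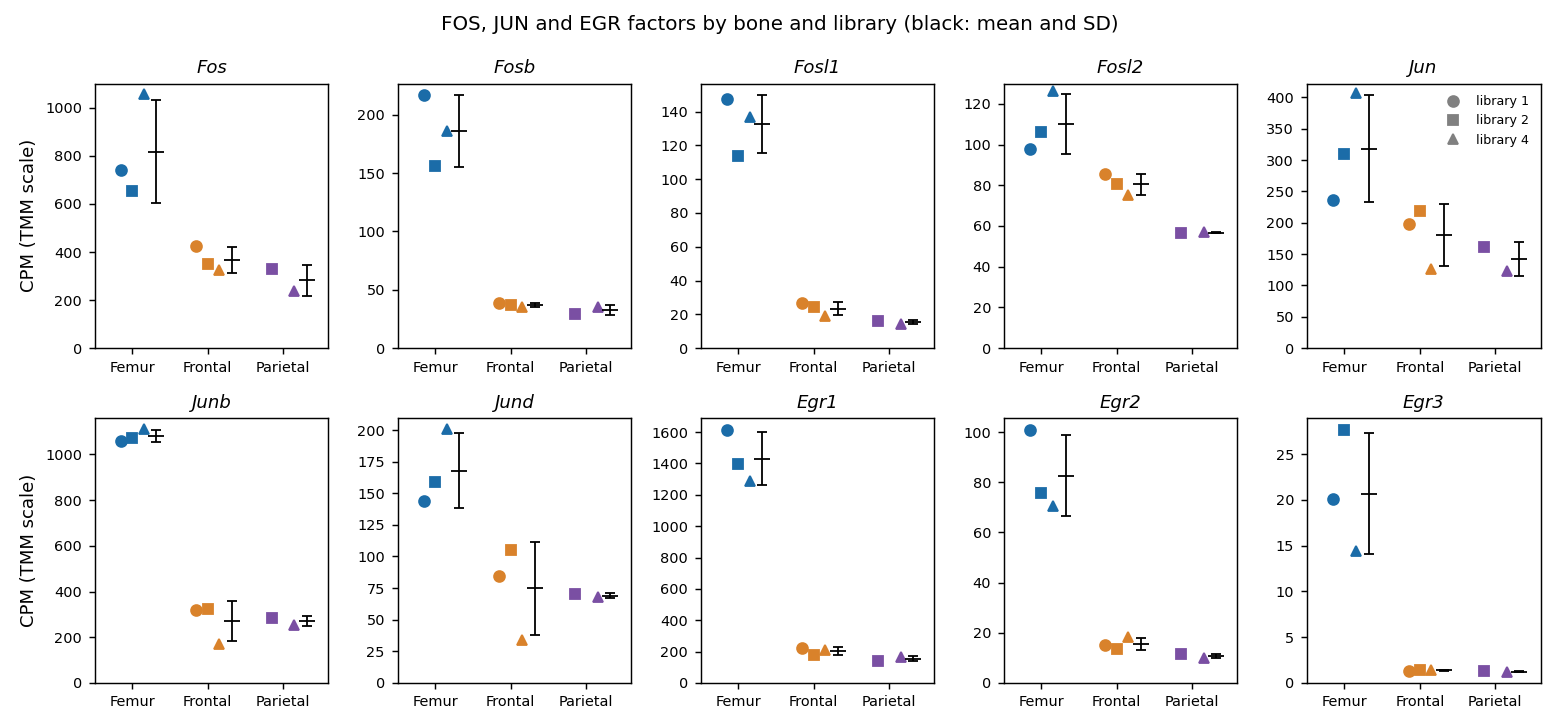
Level of each gene (CPM on the TMM scale, linear axes from 0) in every library of femur, frontal and parietal bone, with black bars for the mean and SD of each bone. All 3 femur libraries stood above all 5 calvarial libraries in each of the 10 panels on this scale. How many of all genes separate in this way was not counted. Frontal library 4 was the lowest library for Junb, at 168.2 CPM, and for Jund, at 34.1 CPM.

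Fos, the founding member of the FOS genes (chr12:85473890-85477273), measured 740, 654 and 1059 CPM in femur libraries 1, 2 and 4. It measured 427, 352 and 324 CPM in frontal libraries 1, 2 and 4, and 329 and 236 CPM in parietal libraries 2 and 4. The femur libraries were all higher than the calvarial ones, with femur library 4 the highest, while frontal and parietal values overlapped. The mean was 818 ± 214 CPM (SD, n = 3) in femur and 333 ± 68.3 CPM (n = 5) in calvaria, 2.54-fold lower (log2 fold change -1.34, SE 0.17, edgeR adjusted p = 4.29e-05). Scaled to the osteocyte markers, Fos was higher in calvaria by 0.62 on the log2 scale.

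Fosb, whose product resembles FOS and whose shorter splice form delta FosB raises bone mass in mice, lies at chr7:19302696-19310051. It measured 217, 156 and 186 CPM in femur libraries 1, 2 and 4, and 38.4, 37.1 and 35.5 CPM in frontal libraries 1, 2 and 4. In parietal libraries 2 and 4 it measured 29.3 and 35.5 CPM. No calvarial library came near a femur one, and the frontal libraries were the closest to each other, with a coefficient of variation of 3.85%. Fosb was 5.38-fold lower in calvaria (log2 fold change -2.43, SE 0.13, edgeR adjusted p = 7.98e-08). The counts are per gene, so the splice forms were not separated.

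Fosl1, the gene of FRA1, a FOS protein without a strong activation domain (chr19:5447547-5455946), measured 147, 114 and 137 CPM in femur libraries 1, 2 and 4. It measured 26.5, 24.1 and 19.0 CPM in frontal libraries 1, 2 and 4, and 16.1 and 14.4 CPM in parietal libraries 2 and 4. Every frontal library was above both parietal ones, and all were far below femur. The calvarial level was 7.03-fold lower (log2 fold change -2.81, SE 0.14, edgeR adjusted p = 5.43e-08). Fosl1 shares 1163 exonic bases with Ccdc85b on the opposite strand. Ccdc85b held 640 counts over all libraries, and without a stated strand setting their reads cannot be told apart.

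Fosl2, the gene of FRA2, which acts in osteoblast and osteoclast differentiation (chr5:32135801-32157842), differed least. It measured 97.7, 106 and 126 CPM in femur libraries 1, 2 and 4, and 85.6, 80.6 and 75.1 CPM in frontal libraries 1, 2 and 4. In parietal libraries 2 and 4 it measured 56.6 and 56.9 CPM. The 3 bones did not overlap, and the lowest femur library was close to the highest frontal one. Fosl2 was 1.63-fold lower in calvaria (log2 fold change -0.71, SE 0.12, edgeR adjusted p = 2.64e-04). The direction turned on other scales, with 0.20 once the length and GC trend of each library was removed (adjusted p = 0.162) and 1.27 on the osteocyte scale.

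Jun, the founding JUN gene and the partner of FOS in AP-1 (chr4:95049034-95052222), measured 237, 310 and 407 CPM in femur libraries 1, 2 and 4. It measured 198, 219 and 125 CPM in frontal libraries 1, 2 and 4, and 162 and 123 CPM in parietal libraries 2 and 4. The highest calvarial library, frontal 2, was just under the lowest femur library, and femur library 4 stood highest. Jun was 1.98-fold lower in calvaria (log2 fold change -0.99, SE 0.20, edgeR adjusted p = 0.00131), and was 0.97 higher on the osteocyte scale. It shares 232 exonic bases with the antisense gene Junos, which held 265 counts in all.

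Junb, a JUN gene that acts in osteoblast proliferation and can dampen JUN (chr8:84974484-84978718), measured 1060, 1074 and 1111 CPM in femur libraries 1, 2 and 4. It measured 318, 323 and 168 CPM in frontal libraries 1, 2 and 4, and 286 and 254 CPM in parietal libraries 2 and 4. The femur libraries were the tightest of any member, with a coefficient of variation of 2.45%, while frontal library 4 was the lowest of all. Junb was 4.0-fold lower in calvaria (log2 fold change -2.0, SE 0.18, edgeR adjusted p = 3.34e-06). On the osteocyte scale its log2 difference was -0.003 (adjusted p = 0.99). Prdx2, an opposite-strand gene with 66021 counts, shares 173 exonic bases with it.

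Jund, the JUN gene with the steadiest expression in many cell types (chr8:70698949-70700616), measured 144, 159 and 201 CPM in femur libraries 1, 2 and 4. It measured 84.6, 105 and 34.1 CPM in frontal libraries 1, 2 and 4, and 70.3 and 67.6 CPM in parietal libraries 2 and 4. Frontal library 4 was the lowest and frontal library 2 the highest of the calvarial ones, so the frontal libraries bracketed the parietal ones. Jund was 2.34-fold lower in calvaria (log2 fold change -1.22, SE 0.28, edgeR adjusted p = 0.00300). Its longest transcript was the richest in GC of the members, at 67.1%, and it shares 877 exonic bases with the antisense gene Gm11175, which held 0 counts. Once the GC and length trend was taken out, the difference was -0.12 (adjusted p = 0.540), and on the osteocyte scale it was 0.75 (adjusted p = 0.0507).

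Egr1, an early growth response factor that acts on growth factor and matrix genes, followed the pattern of a high femur and a low calvaria. It measured 1614, 1395 and 1286 CPM in femur libraries 1, 2 and 4, and 225, 177 and 208 CPM in frontal libraries 1, 2 and 4. In parietal libraries 2 and 4 it measured 143 and 166 CPM. Even the lowest femur library was far above the highest calvarial one, and each frontal library was above both parietal ones. Egr1 was 8.08-fold lower in calvaria (log2 fold change -3.01, SE 0.13, edgeR adjusted p = 2.38e-08). It fell by 1.95 in the fit without the length and GC trend and by 1.0 on the osteocyte scale.

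Egr2, known for its part in myelination and, in bone cells, as a brake on osteoclast formation (chr10:67535475-67542188), measured 101, 75.9 and 70.7 CPM in femur libraries 1, 2 and 4. It measured 14.9, 13.4 and 18.1 CPM in frontal libraries 1, 2 and 4, and 11.3 and 9.99 CPM in parietal libraries 2 and 4. All calvarial libraries were low, and frontal library 4, the lowest for Junb and Jund, was the highest of them here. Egr2 was 6.41-fold lower in calvaria (log2 fold change -2.68, SE 0.16, edgeR adjusted p = 1.30e-07).

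Egr3, which acts in lymphocyte activation and muscle spindles (chr14:70077203-70082614), had the lowest level per kilobase and differed most. It measured 20.1, 27.6 and 14.4 CPM in femur libraries 1, 2 and 4, and 1.16 to 1.43 CPM in the 5 calvarial libraries. Behind these values stood 117, 292 and 123 counts in femur and 10 to 17 counts per calvarial library, so the calvarial level rests on few reads. Egr3 was 15.7-fold lower in calvaria (log2 fold change -3.97, SE 0.25, edgeR adjusted p = 2.14e-07). The spread in femur, with a coefficient of variation of 32%, was small beside that difference.

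The direction of the smaller differences depended on the scale, since scaling moves all genes by about the same amount. Scaling to the osteocyte markers without Dmp1, their largest gene, moved the median gene to a log2 fold change of 1.99. On that scale 518 genes were called lower and 13265 higher, against 4868 and 4596 on the TMM scale. Of the members, Fosb at -0.42, Fosl1 at -0.81, Egr1 at -1.0, Egr2 at -0.67 and Egr3 at -1.98 were still called lower. Fos, Fosl2 and Jun were called higher, and Junb and Jund passed in neither direction. The markers without Dmp1 summed to 5689 to 7918 CPM in femur and 1235 to 1986 CPM in calvaria. Dstn, a marker that was higher in calvaria, gave 374.5 to 551 CPM of that sum in femur and 661 to 951 CPM in calvaria. In calvaria this scale therefore leaned on Dstn, and how the calls stand without Dstn and Capg was not tested. The GC trend was a separate matter. The 1544 genes with at least 57.4% GC had a median centred log2 CPM of 0.33 to 0.51 in femur. It was -0.001 and 0.015 in frontal libraries 1 and 2, but -0.44 in frontal library 4 and -0.33 and -0.39 in the parietal libraries. Removing that trend left 8 of the 10 genes called lower, all but Fosl2 and Jund, where 26.4% of all genes were called lower.

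**Figure D2:**
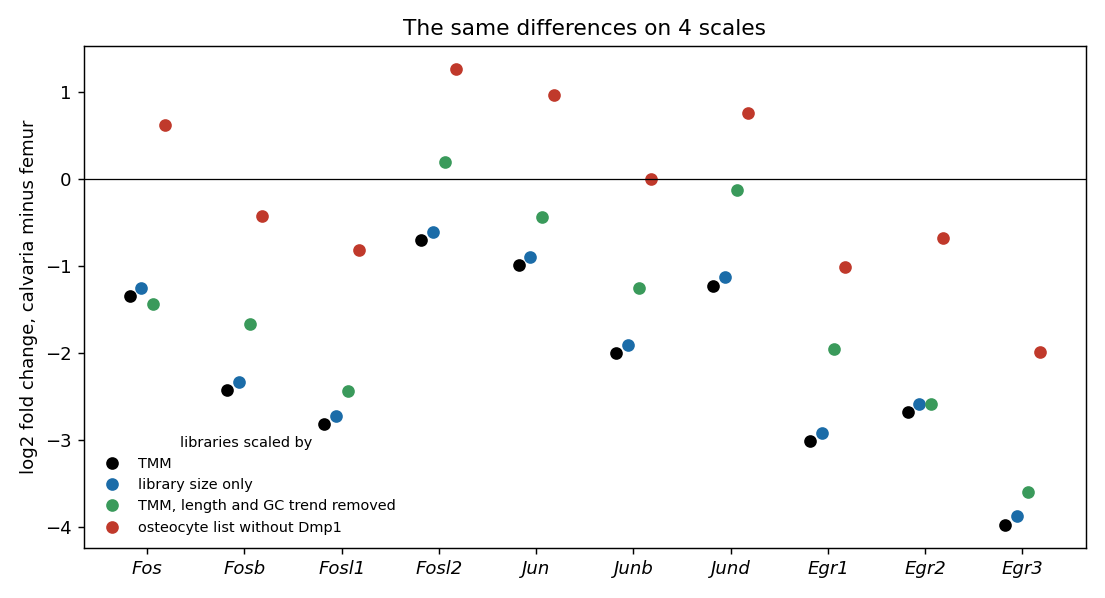
Log2 fold change of calvaria minus femur for each gene under 4 scalings of the same counts. Black points are TMM, and red points, scaled to the osteocyte markers without Dmp1, lie higher by about the shift of the median gene; Fosb, Fosl1 and the 3 EGR genes were below 0 under all 4 scalings, while Fosl2 was above 0 under the last 2, at 0.20 and 1.27.

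Frontal and parietal bone were next compared with femur separately. These comparisons share the 3 femur libraries, so they are not independent of each other. In frontal bone 10 of 10 members were called lower, where 28.5% of all genes were, with a median log2 fold change of -2.17. In parietal bone 10 of 10 were called lower, where 28.6% of all genes were, with a median of -2.26. Without the length and GC trend 7 were called lower in each bone, all but Fosl2, Jun and Jund, with Fosl2 at 0.30 and 0.09. Of all genes, 24.2% were then called lower in frontal and 22.8% in parietal bone. On the osteocyte scale 2 were called lower and 4 higher in frontal bone, where 2.57% of all genes were lower and 87.2% higher. In parietal bone 5 were called lower and 1 higher on that scale, where the shares of all genes were 3.62% and 76.8%. On the TMM scale Fos differed from femur by -1.15 in frontal and -1.53 in parietal bone, and Fosl1 by -2.51 and -3.12. Junb differed by -2.0 in both bones. Egr1 differed by -2.82 in frontal and -3.21 in parietal bone, and Egr3 by -3.89 and -4.05. Jund was the least secure call. Without femur library 4 its difference was -1.02 in frontal bone (edgeR adjusted p = 0.0547) and -1.14 in parietal bone (adjusted p = 0.0536). Without parietal library 2 or 4 its parietal difference was -1.34 or -1.30 (adjusted p = 0.0666 and 0.0664). Fosl2 in frontal bone was -0.45 (adjusted p = 0.0116), and -0.32 when libraries were scaled by their total alone (adjusted p = 0.0700).

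Between frontal and parietal bone no member was called by edgeR, where 7.21% of all genes were called in either direction. At an unadjusted edgeR p under 0.05 there were 4, all with higher frontal values, and the share of all genes at that level was not counted. DESeq2 called 2, where it called 6.69% of all genes lower and 7.65% higher in frontal bone. With limma-voom 0 were called, where 5.22% of all genes were lower and 4.96% higher. Fosl1 differed by 0.61 (SE 0.18, edgeR adjusted p = 0.0648) and Fosl2 by 0.50 (SE 0.15, adjusted p = 0.0605), and these were DESeq2's calls, with adjusted p of 0.0324 and 0.0196. Egr2 differed by 0.53 (edgeR adjusted p = 0.126) and Egr1 by 0.40 (adjusted p = 0.133). Fos, at 0.38, and Jun, at 0.35, had overlapping libraries. The 3 frontal libraries stood above both parietal ones for Fosb, Fosl1, Fosl2, Egr1, Egr2 and Egr3. For Fosb the margin was 35.53 CPM in frontal library 4 against 35.5 CPM in parietal library 4, and Egr3 rested on 10 to 17 reads per library. How many of all genes separate in this way was not counted, so no pattern is read from these 6. The 7.21% itself moved in both directions with single libraries. Over all genes, 0 were called on leaving out frontal library 1 or femur library 2. Without frontal library 4 there were 123 lower and 395 higher, against 511 and 607. The counts rose to 1036 and 927 without frontal library 2. They were 631 and 1083 without femur library 1, and 669 and 827 without femur library 4.

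**Figure D3:**
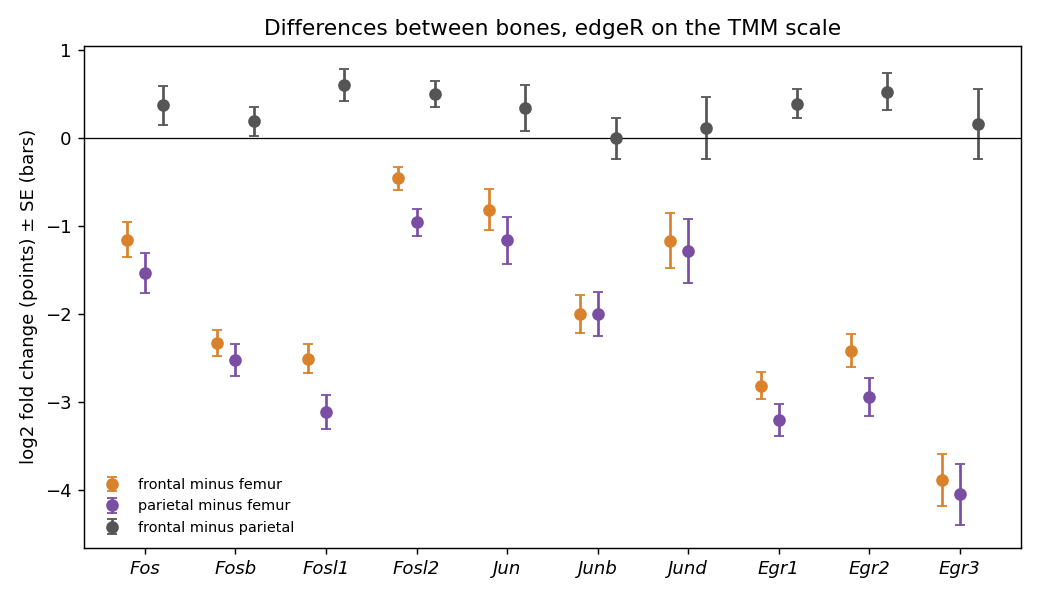
Log2 fold change (points) with its standard error (bars) from edgeR on the TMM scale, for frontal minus femur, parietal minus femur and frontal minus parietal. The differences from femur lie below 0 for all 10 genes on this scale, from -0.45 to -4.05, whereas the frontal minus parietal values lie between 0.00 and 0.61 and none passed the test.

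Levels were also ordered within each bone, per kilobase of exon in GENCODE M21. In femur, Junb led with 470 ± 11.5 CPM per kilobase (SD, n = 3), followed by Fos with 348 ± 90.9 and Egr1 with 319 ± 37.2, which overlapped. Jund at 101 and Jun at 99.7 CPM per kilobase came next and overlapped, then Fosl1 at 65.2. Fosb at 29.9 and Egr2 at 24.3 CPM per kilobase overlapped, and Fosl2 at 11.4 and Egr3 at 4.69 closed the order. In calvaria Fos, at 142 ± 29.1 CPM per kilobase (n = 5), and Junb, at 117 ± 27.5, overlapped at the top. Jun at 51.9, Jund at 43.4 and Egr1 at 41.0 CPM per kilobase followed and overlapped with their neighbours. Fosl1 at 9.84, Fosl2 at 7.33, Fosb at 5.63 and Egr2 at 3.99 CPM per kilobase also overlapped in turn, and Egr3 was last at 0.300. By the longest transcript in place of all exons, Fosl1 and Fosl2 changed places in calvaria. Egr1 thus overlapped with Fos in femur and stood below it in calvaria.

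Within families, the make-up differed by bone. Of the FOS transcripts per kilobase, Fos made up 76.1 ± 3.86% (SD, n = 3) in femur and 86.1 ± 1.53% (n = 5) in calvaria. Fosl1 made up 14.6% in femur and 5.95% in calvaria, and Fosb 6.71% and 3.52%. Of the JUN transcripts, Junb made up 70.3 ± 4.08% in femur and 55.4 ± 2.57% in calvaria, and Jun 14.7% and 24.6%. Egr1 made up most of the EGR transcripts in both, at 91.7% and 90.5%. These shares were not tested as such. Ratios between some of the members were tested next, but no pair held Fosl1, so its change in share was not tested.

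A ratio of 2 genes within a library needs no scaling factor. The 9 pairs chosen were compared between 3 femur and 5 calvarial libraries with an exact permutation test (two-sided, 56 splits, smallest possible p of 0.0179), adjusted over the 9 pairs. Egr1 over Fos was at a log2 ratio of 1.13, 1.09 and 0.28 in femur libraries 1, 2 and 4, and at -1.20 to -0.50 in calvaria. Counts of Egr1, not corrected for gene length, therefore exceeded those of Fos in every femur library and fell short of them in every calvarial one. The difference was -1.69 (exact permutation adjusted p = 0.0321), but -0.55 once the GC and length trend was taken out (adjusted p = 0.161). Junb over Jun was at 2.16, 1.79 and 1.45 in femur and at 0.42 to 1.05 in calvaria, a difference of -1.09 (adjusted p = 0.0321) that was -0.84 without the trend (adjusted p = 0.0268). Egr3 over Egr1 differed by -0.89 (adjusted p = 0.0321), and by -1.56 without the trend (adjusted p = 0.0268). Fosl2 over Fos was higher in all 5 calvarial libraries, by 0.64 (adjusted p = 0.0321), and by 1.62 without the trend (adjusted p = 0.0268). Fosb over Fos was lower in all 5, by -1.11 (adjusted p = 0.0321), but by -0.27 without the trend (adjusted p = 0.393). The remaining 4 pairs did not pass. Fos over Jun differed by -0.34, Jund over Jun by -0.34 and Egr2 over Egr1 by 0.36, and Fos over Jund by 0.003. Without the trend 3 of these 4 passed at an adjusted p of 0.0268 each by the same exact permutation test. These were Fos over Jun at -0.97, Fos over Jund at -1.26 and Egr2 over Egr1 at -0.58, the last with its direction turned. Leaving out any library ended all 5 calls and kept their directions. The exact permutation p, adjusted over the 9 pairs, then ran from 0.0514 to 0.103 for these 5. Before adjustment, 2 femur libraries allow no p under 0.0476 and 4 calvarial ones none under 0.0286, so there was little room to pass.

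**Figure D4:**
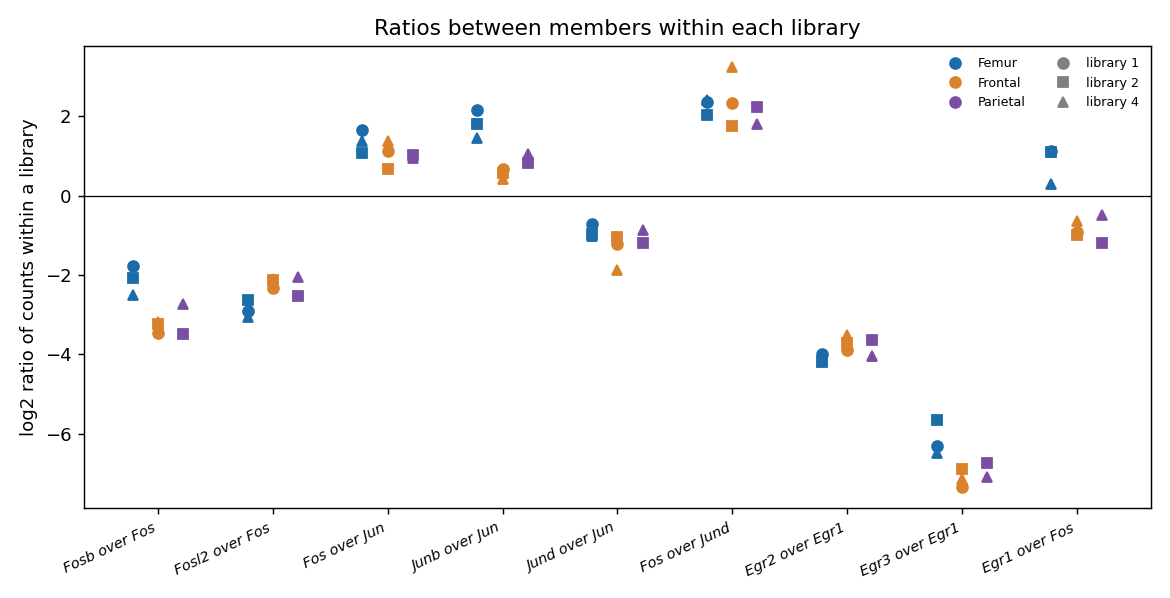
Log2 ratio of counts of 2 genes within each library, for 9 pairs, with colour for bone and shape for library number. Femur and calvarial libraries do not overlap for Fosb over Fos, Fosl2 over Fos, Junb over Jun, Egr3 over Egr1 and Egr1 over Fos; for Egr1 over Fos the femur points lie above 0, at 0.28 to 1.13, and the calvarial points below it.

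Of 21 upstream kinases and factors that act on these promoters or proteins, all tested, 9 were lower in calvaria and 5 higher, where 31.4% of all genes were lower and 29.6% higher, while 7 did not pass; their median log2 fold change was -0.27. Rela, the NF-kappa-B subunit p65, fell by 2.10 on the log2 scale, and Elk3 and Elk4, partners of serum response factor, fell by 1.60 and 1.53. Chosen after their values were seen, Srf, the gene of serum response factor, fell by 1.22, and Creb1, the gene of CREB, did not pass at 0.01. The kinase genes Mapk3 (ERK1), Mapk8 (JNK1), Mapk9 (JNK2), Mapk14 (p38 alpha) and Map3k1 were the 5 that were higher, by 0.45 to 0.64, and on the osteocyte scale 18 of the 21 were higher and 0 lower, where 85.5% of all genes were higher and 3.34% lower. Of 19 tested partners of these factors, 12 were lower, 3 higher and 4 did not pass. Nfe2l1 at -2.15, Mafk at -2.29 and Mafg at -1.57, bZIP factors of the CNC and small MAF families, led the partners. Chosen after their values were seen, Nab2, a corepressor of EGR factors, was lower at -1.88 and its relative Nab1, at -0.18, did not pass. The 3 that were higher, also picked with their values known, were Batf at 0.50, Maf at 0.79 and Bach2 at 0.72. On the osteocyte scale 0 of the 19 partners were lower and 13 higher, again where 85.5% of all genes were higher.

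Other immediate early genes and the feedback inhibitors were lower with few exceptions on the TMM scale. Of 45 other immediate early genes, 40 were lower, 0 higher while 5 did not pass, where 31.4% of all genes were called lower. Their median log2 fold change was -1.51. Arc, best known as a gene of active neurons, measured 293 ± 31.7 CPM in femur (SD, n = 3) and 6.60 ± 2.45 CPM in calvaria (n = 5), a log2 fold change of -5.63. Ier3, a stress-induced survival gene, differed by -2.72, and the growth arrest gene Gadd45g differed by -2.74. The 5 that did not pass, seen after testing, were Nr4a3, Irf1, Nfkbia, Tnfaip3 and Per1, with differences from -0.27 to 0.20. Of 15 MAP kinase phosphatases and Sprouty or Spred inhibitors, which dampen the signal upstream of these factors, 15 were lower, with a median of -2.0. They included Dusp14 at -3.91, Dusp6, the phosphatase of ERK, at -2.61 and Spred1 at -3.41. On the osteocyte scale the counts were 8 lower and 24 higher for the other immediate early genes, and 4 lower and 6 higher for the inhibitors, against 3.34% and 85.5% of all genes. Without the length and GC trend they were 37 lower and 1 higher, and 13 lower and 0 higher, against 26.4% lower and 31.5% higher over all genes.

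Known targets of these factors were also mostly lower on the TMM scale. Of 23 tested AP-1 targets, 19 were lower, 1 higher while 3 did not pass; their median log2 fold change was -2.24, and 31.4% of all genes were called lower. Tnfsf11, the gene of the osteoclast factor RANKL, was lower at -2.34, Lif, an interleukin 6 family cytokine, at -3.48, and Hmox1, the gene of heme oxygenase 1, at -3.01. Acp5, the osteoclast acid phosphatase, was the one that was higher, at 0.92, and Mmp9, Mmp13 and Ccnd1 did not pass; these 4 were picked with their values known. Of 14 tested EGR targets, 13 were lower, 0 higher and 1, Igf2, did not pass, with a median of -2.03. Pdgfa, a growth factor gene, was lower at -3.06, the membrane protease gene Mmp14 at -2.45 and the sphingosine kinase gene Sphk1 at -2.29. On the osteocyte scale 9 AP-1 targets were lower and 9 higher, and 4 EGR targets were lower and 2 higher, where 3.34% of all genes were lower and 85.5% higher. Several targets are also markers of bone cells or matrix, and Mmp14 stands in both lists. Atf3, Maff, Dusp1 and Nab2 likewise each stand in more than 1 of the lists used here.

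Of 16 heat shock chaperones, which belong to a separate stress response, 13 were lower in calvaria, 1 higher while 2 did not pass; their median log2 fold change was -1.02, and 31.4% of all genes were called lower. Bag3 at -3.47, Cryab at -4.40 and Hspb1 at -2.71 led them, and Hspe1, chosen after its value was seen, was higher at 0.38. Their summed share was 1.11 to 1.22% of counts in femur and 0.547 to 0.592% in calvaria, and on the osteocyte scale 3 were lower and 10 higher, where 85.5% of all genes were higher. Endothelial markers held 0.0656 to 0.0781% in femur and 0.0285 to 0.0409% in calvaria. Osteoblast and matrix markers held 4.59 to 6.19% and 0.528 to 2.43%. Of these 15, 10 were lower in calvaria and 5 did not pass. Col1a1 and Col1a2 were the largest, at means of 20860 and 22040 CPM in femur and 4232 and 3591 CPM in calvaria. Monocyte and macrophage markers held 0.387 to 0.685% and 1.38 to 1.81%. Of these 14, 10 were higher, 2 lower and 2 did not pass. Lyz2 was the largest, at a mean of 3612 CPM in femur and 12300 CPM in calvaria. Fibroblast and tendon markers overlapped, at 0.209 to 0.261% and 0.0752 to 0.242%, and muscle markers were under 0.003% in every library. All 14 endothelial markers and all 16 osteocyte markers had counts in some library. The part of these shares in the members' differences was not tested.

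The genes whose pattern was most like the members' own were sought by the root mean square difference to the members' median log2 profile over the 8 libraries, among genes that averaged 5 CPM or more. The nearest were Magee1 at 0.099, Sphk1 at 0.104, Smad3 at 0.106, Tshz1 at 0.114 and Cry1 at 0.117. Smad3, for example, measured 87.9, 76.8 and 76.2 CPM in femur, 17.8, 20.8 and 14.5 CPM in frontal and 16.2 and 15 CPM in parietal libraries. Of the members, Fosb at 0.174 and Junb at 0.228 lay closest to that median profile, and Fosl2 at 0.745 and Egr3 at 0.817 lay farthest from it. Of the other genes searched, 34 lay nearer to it than Fosb, 117 than Junb, 2614 than Fosl2 and 3106 than Egr3. The profile was therefore not particular to the members. Sphk1 also stands in the list of EGR targets.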

How the data were processed

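The values are raw gene counts as deposited by the authors for 8 libraries of total RNA. Per the labels' protocols these were Nextera XT libraries with paired-end reads. The table held 43346 gene rows and 92 spike-in rows, which were left out. A filtered copy of these counts (23065 rows) was equal to the raw rows, and a scaled CPM table was not used. The submitters' processing notes name STAR 2.5.2a and the builds GRCm38.p3 and mm10. How reads were assigned to genes, with which strand setting and annotation, is not given in the sources used here.

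Testing used edgeR 4.0.16 (R 4.3.3): filterByExpr (15511 genes), TMM, and a robust quasi-likelihood fit of 3 bone means to all 8 libraries, with a biological coefficient of variation of 18.6% and 5 residual degrees of freedom. Calvaria is the mean of the frontal and parietal coefficients. Benjamini-Hochberg adjustment ran over the 15511 genes, and an adjusted p under 0.05 was a call. The step was tested on simulated counts. Ratios of 2 genes used counts plus 0.5 and an exact permutation test. DESeq2 1.42.0, limma-voom (limma 3.58.1), other scalings, filters, a replicate block and leaving out each library were the alternatives. Removal of a loess trend on GC and transcript length was added after seeing the data.

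The members and lists were chosen with earlier results of these data known. Named genes were all members, the 3 members of each discussed list with the smallest p for calvaria against femur, the 5 genes of nearest pattern, and those given as chosen after their values were seen. Gene positions come from GENCODE M21 (GRCm38), and the release behind the counts may differ.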

Additional observations from a re-analysis of the deposited data

How the results depend on the processing

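For calvaria against femur, all 10 members were called lower with DESeq2, limma-voom, median-ratio size factors, library size alone, blood markers left out of library sizes, both other filters, and each library left out. Of all genes, 31.2% were lower with DESeq2, 31.9% with limma-voom and 31.7% with median-ratio factors. The share was 28.5% by library size and 30.6% with blood markers left out. It was 15% without a filter and 31.7% at 1 CPM or more in 2 libraries. Leaving out femur or frontal libraries gave 28.6 to 32.1%. Fos ranged from -1.49 to -1.12 and Egr1 from -3.10 to -2.95 on leaving out libraries. With femur or frontal libraries left out, lower calls numbered 9 to 10 in frontal and in parietal bone. There, 25.5 to 28.4% and 26.2 to 29.9% of all genes were lower. The replicate block, on the number in each description, also kept all 10 calls, with -2.97 for Egr1 and -1.33 for Fos. Of all genes, 29.6% were lower in that fit. Deviations of same-numbered libraries from their bone means had correlations of -0.103 to 0.145. With 2 or 3 libraries per bone, such deviations are tied to each other and cannot show whether the numbers mark shared animals. The labels do not say, and the main fit did not pair the libraries.

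On the osteocyte scale, values that changed sign were, against femur, Fos 0.62, Fosl2 1.27, Jun 0.97 and Jund 0.75 in calvaria, Fos 1.07, Fosl2 1.76, Jun 1.40, Junb 0.25 and Jund 1.07 in frontal bone, and Fos 0.18, Fosl2 0.77, Jun 0.54 and Jund 0.44 in parietal bone. Lower calls then numbered 5 in calvaria, 2 in frontal and 5 in parietal bone, and higher calls 3, 4 and 1. Of all genes, 3.34%, 2.57% and 3.62% were lower on that scale, and 85.5%, 87.2% and 76.8% higher. Without the length and GC trend Fosl2 changed sign, at 0.20, 0.30 and 0.094 in these comparisons, and Jun and Jund lost their calls in frontal (-0.41 and -0.09) and parietal bone (-0.45 and -0.16), leaving 7 lower calls in each. Jund also lost its call in calvaria (-0.12). Of all genes, 26.4% were then called lower in calvaria, 24.2% in frontal and 22.8% in parietal bone. The cause was not tested.

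Between frontal and parietal bone, calls numbered 0 by edgeR, 2 with DESeq2, 1 without a filter, 1 with only the libraries compared, 4 on the osteocyte scale, and 0 to 2 on leaving out libraries (2 without femur library 1, and 1 without femur library 4 or frontal library 4). Junb, near 0, changed sign with DESeq2 (-0.004), limma-voom (-0.053), median-ratio factors (-0.003), blood markers left out (-0.024), the replicate block (-0.10) and the trend removed (-0.11). It ranged from -0.15 to 0.29 on leaving out libraries, and Jund from -0.21 to 0.51. Jund was -0.008 with limma-voom, and without the trend Fosb was -0.13 and Egr3 -0.045. Of all genes, 2.28% were lower and 3.59% higher without a filter, and 4.24% and 6.89% with only the libraries compared. The shares were 4.09% and 7.01% without femur library 1, and 4.32% and 5.34% without femur library 4. They were 0.795% and 2.55% without frontal library 4. Over all genes, 511 were lower and 607 higher by edgeR, 1038 and 1187 with DESeq2, 249 and 773 by library size, 36 and 2644 on the osteocyte scale, 25 and 69 without the trend, and 0 and 0 with the replicate block.

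Among ratios, a pseudocount of 5 gave -0.51 for Egr3 over Egr1 (adjusted p = 0.0643, exact permutation) and -0.003 for Fos over Jund. Without the trend, Fosb over Fos was -0.27, Egr1 over Fos -0.55, Fos over Jun -0.97, Jund over Jun 0.28, Fos over Jund -1.26 and Egr2 over Egr1 -0.58. On leaving out libraries, Fosb over Fos ran from -1.31 to -0.94, Fosl2 over Fos from 0.54 to 0.77, Junb over Jun from -1.27 to -0.91, Egr3 over Egr1 from -1.06 to -0.65, Egr1 over Fos from -1.96 to -1.54 and Fos over Jund from -0.24 to 0.14. Depth limits Egr3 in calvaria, at 10 to 17 reads per library.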
